A study of Caenorhabditis elegans with 3 samples.

Results

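The regions described are autosomal places inside introns, away from annotated protein-coding promoters, where DNA was recovered with the tagged worm protein Y5F2A.4. They were chosen by the signal value that the authors' peak caller gave each region in a candidate list made from the reads of both replicates together. Of 28426 nuclear candidates, the 2500 strongest were kept. Regions on the X chromosome, regions whose summit lay no more than 200 bp from a gene for a tRNA, snoRNA or snRNA, and regions with a summit up to 1000 bp upstream of the 5' end of a protein-coding gene were then left out. The summit is the base of highest signal. A region stayed when it lay inside a protein-coding gene but in no exon of it. This left 409 regions, 16.4% of the 2500 and 19.4% of the 2114 on autosomes. They lay in 344 genes.

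The worms were Caenorhabditis elegans of strain OP682. They carried the mutation unc-119(tm4063) and the integrated transgene wgIs682, which holds Y5F2A.4::TY1::EGFP::3xFLAG and a wild-type unc-119 copy. Whole L4 larvae of pooled males and females were collected at 48 hours after L1 starvation, and chromatin was precipitated with an antibody against GFP. There were 2 biological replicates in 1 group, the first sequenced as 2 technical libraries that share 1 alignment, so there is nothing to contrast and no test between groups was made. The labels name 1 strain, and its whole animals mix every tissue. Read depth is unknown because the lists hold scores without read counts.

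An intron is the part of a transcribed gene that splicing removes from the RNA. In worms most introns are very short, while the long ones, often the first of a gene, can hold enhancers, promoters of shorter transcripts and small RNA genes. A C2H2 zinc finger, the domain annotated in Y5F2A.4, is a common DNA-binding fold. Genes read by RNA polymerase III, such as tRNA genes, often carry their promoter inside the transcribed part, as 2 short sequences called the A box and the B box. Copies of the B box outside annotated tRNA genes are also known in many genomes.

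In a window of the summit and 50 bases to each side, the 9-base word GAGACGCAG was found more often than in sequence 300 bp away. Words were counted on both strands throughout. To let the surrounding bases be compared, copies are shown from 7 regions on chromosomes II to V. They are the 5 strongest there with the word and those of zfp-1 and mpk-1. The latter were taken out of rank order, past stronger regions such as those of pde-4, grsp-1, lin-42 and lit-1. After the word, the copies of pde-4, grsp-1 and lin-42 differ from those of zfp-1 and mpk-1. A lit-1 copy shares their next bases. Bases shared around the word here thus need not be shared by all its copies. The word is in capitals with 10 bases to each side, on the strand that carries it. Coordinates are in ce11, with the sequence of the RefSeq assembly of the same build.
Y111B2A.12, chrIII:12612655-12612683, minus strand: aaatgacaccGAGACGCAGacatcgagtg
epg-9, copy nearer the summit, chrIV:2602138-2602166, minus strand: agacactggtGAGACGCAGacatcaaaag
epg-9, other copy, chrIV:2602167-2602195, minus strand: gactacggagGAGACGCAGacaggcaaag
nurf-1, chrII:14405360-14405388, plus strand: ggtaaatcgaGAGACGCAGacggcgtaga
W06H8.6, chrV:6224625-6224653, plus strand: cctcctagggGAGACGCAGgcaaaggcca
larp-1, chrIII:5014082-5014110, plus strand: ggcccaataaGAGACGCAGagaaacgaag
zfp-1, chrIII:8794943-8794971, plus strand: caagagagtaGAGACGCAGacaaatagtg
mpk-1, chrIII:4223789-4223817, plus strand: ggagtatcaaGAGACGCAGacatttagat

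A second kind of sequence was found in a few of the strongest regions. The 7-base word GGTTCGA holds the core of the B box, and TGGCNNAG, with N for any base, holds the core of the A box. Whole windows are shown for 4 regions of the reproducible list that carry the first word, with both words in capitals. The sms-3 window is the only 1 of these 4 that holds both.
Y57G11C.22, chrIV:14838292-14838392, plus strand: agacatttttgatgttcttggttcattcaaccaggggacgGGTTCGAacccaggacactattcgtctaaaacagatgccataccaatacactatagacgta
Y69A2AR.31, stronger region, chrIV:2658973-2659073, minus strand: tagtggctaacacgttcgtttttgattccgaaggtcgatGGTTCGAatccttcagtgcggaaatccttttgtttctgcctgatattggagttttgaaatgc
Y69A2AR.31, weaker region, chrIV:2657428-2657528, plus strand: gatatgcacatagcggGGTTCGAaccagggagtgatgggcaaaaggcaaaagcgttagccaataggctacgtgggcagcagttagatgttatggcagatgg
sms-3, chrIII:1599090-1599190, plus strand: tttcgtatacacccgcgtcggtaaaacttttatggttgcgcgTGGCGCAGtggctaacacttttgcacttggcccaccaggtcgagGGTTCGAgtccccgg

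Most intronic regions were of modest height. The signal value, a score with no stated unit, ran from 65.2 to 470.9 with 74.2 as the median, beside 79.0 over all 2500. Only 5 regions were over 200, 39 lay from 100 to 200, and 365 were under 100. At the lower limit of the list, the last regions inside were in ltah-1.2 (65.2), clec-80 (65.2), a C-type lectin gene, and eps-8 (65.2), which encodes an actin regulator. The first intronic candidates outside were in znf-782 (65.1), ain-2 (65.0) and hil-4 (65.0), so the limit falls inside a continuous range. The regions had nearly one width, 376 bp for 406 of 409.

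The 5 strongest regions lay in genes of unrelated function. The highest was in the first intron of ints-8, which encodes a subunit of the Integrator complex, at I:13463830-13464113, with a signal value of 470.9 in the combined list, 233.5 in replicate 1 and 235.7 in replicate 2. Its summit was within 200 bp of rpr-1, the gene of the RNase P RNA, which the annotation lists as a general non-coding RNA. The next was in the fourth intron of ppfr-1, a gene for a regulatory subunit of protein phosphatase 4, with 329.6 in the combined list, 156.0 in replicate 1 and 160.1 in replicate 2. Of the stretches of 36 bases around that summit, 39.4% occur once in the genome, so reads there may come from other copies. The third was in the last intron of lips-10, a lipase-related gene, with 229.0, 142.9 and 91.4. The fourth was in srt-52, a chemoreceptor gene, with 215.5 combined, 80.9 in replicate 1 and 131.9 in replicate 2. The fifth was in Y111B2A.12, a gene for a WD-repeat protein, with 214.3, 102.6 and 128.7. All 5 were found in both replicates, with no common direction of difference between them.

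The other regions among the 25 strongest had combined values from 113.8 to 197.2. Several hosts act in transcription or chromatin. They were mdt-26, a Mediator subunit gene (197.2), zip-7, for a bZIP factor (156.1), zfp-1, for a PHD finger protein related to mammalian AF10 (145.0), and let-526, for an ARID-domain subunit of a SWI/SNF remodelling complex (136.3). Others serve the cytoskeleton, such as klp-6, a kinesin gene (163.5), and tba-7, for an alpha tubulin (161.2). The remainder included gei-4 (188.5), the putative transporter gene B0361.11 (149.4), Y57G11C.22 (148.3), znf-593 (139.3), T28F4.1 (138.1), Y43F8B.2 (134.5) and the autophagy gene epg-9 (125.2). C32D5.12 (123.2), 2 regions of Y69A2AR.31 (122.8 and 115.8), the succinate-semialdehyde dehydrogenase gene alh-7 (119.7), Y105C5A.15 (118.0), the receptor gene frpr-10 (114.9) and mstr-1 (113.8) completed them. These are single regions picked by height, and no theme was tested.

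A stricter list of the authors, thresholded by how consistently regions ranked, held 41 of the 409 regions, or 10.02% (95% exact interval 7.29 to 13.4%). Over all 2500 strongest regions the share was 24.8%, and over all 28426 nuclear candidates 2.18%. Among autosomal regions of the same 2500, the share was 12.5% for exonic, 15.95% for distal intergenic, 28.4% for promoter and 62.0% for regions near tRNA, snoRNA or snRNA genes. The intronic share thus lay under the background. All 41 had a combined value of 100 or more. That list was partly built from the combined values that chose the regions, so these shares describe the list and test nothing.

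**Figure D1:**
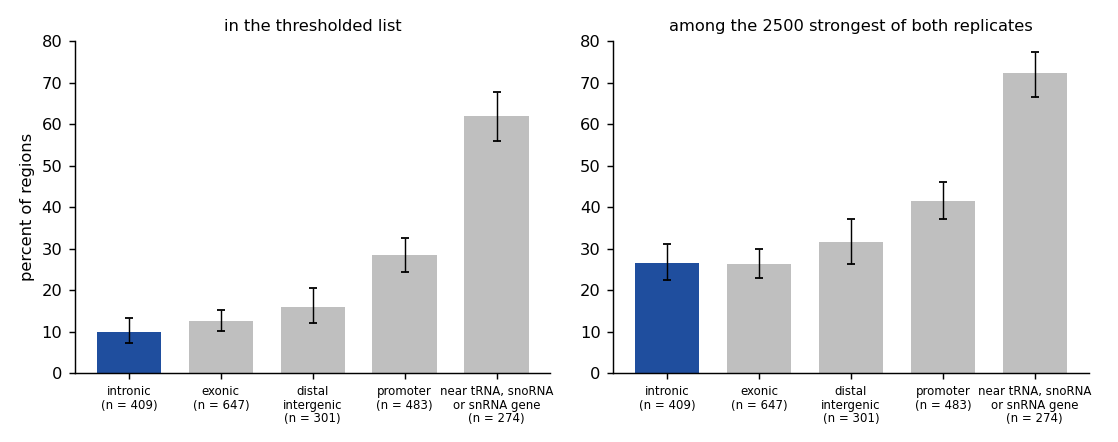
Share of regions (percent, y axis) in the thresholded list (left) and among the 2500 strongest of both replicate lists (right), for each class of autosomal regions with its number. Bars give the share and lines its 95% exact binomial interval; intronic regions reach 10.02% and 26.7%, and regions near tRNA, snoRNA or snRNA genes 62.0% and 72.3%.

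Replicate lists found most of the intronic regions but ranked them differently. A candidate summit lay within 200 bp in replicate 1 for 387 regions, in replicate 2 for 398 and in both for 376, or 91.9% (88.9 to 94.4%). For weaker intronic candidates, those of the combined list past rank 2500, the share in both was 26.4% of 6839. Being among the 2500 strongest of both replicate lists was rarer, with 109 regions or 26.7% (22.4 to 31.2%), against 38.4% over all 2500. A further 91 reached that rank in replicate 1 only, 140 in replicate 2 only, and 69 in neither. The median rank was 2381 in replicate 1 and 1862 in replicate 2, and in 54 regions the ranks were over 10-fold apart. The replicate lists hold 29984 and 23398 nuclear candidates and share their reads with the combined list, so their agreement is not independent of the choice. Neighbouring regions could also match the same candidate. Both regions of unc-60, for example, had values of 32.9 in replicate 1 and 49.7 in replicate 2.

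**Figure D2:**
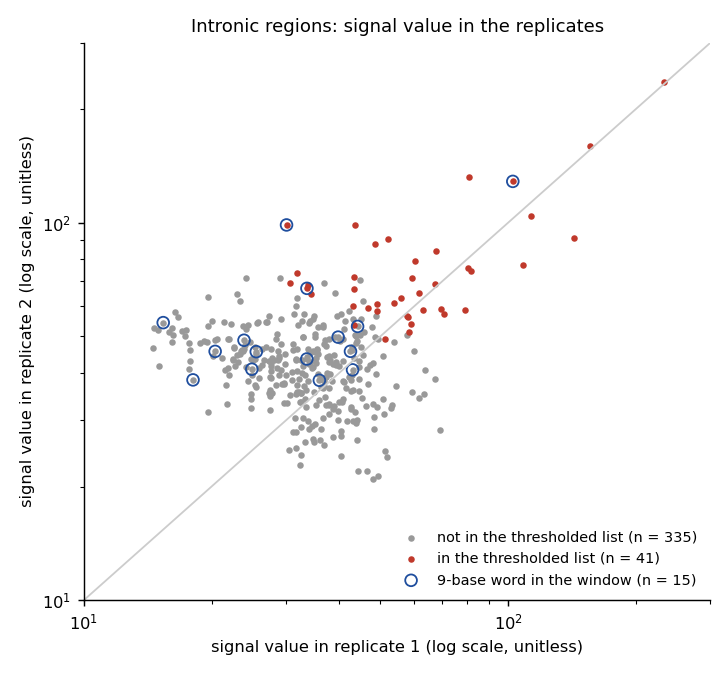
Signal value (unitless, log axes) of the 376 intronic regions with a candidate within 200 bp in both replicates, replicate 1 on the x axis and replicate 2 on the y axis; the line marks equal values. The 41 thresholded regions (red) lie toward high values in both, most other regions (grey) are strong in 1 replicate at most, and 12 of the 15 circled regions with the 9-base word have the better rank in replicate 2.

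The widest gaps between replicates were in spp-1 and ver-1. The region in the first intron of spp-1, which encodes a saposin-like antimicrobial peptide, had a signal value of 69.1 and rank 230 in replicate 1 but 28.2 and rank 10350 in replicate 2. The region in the fourth intron of ver-1, a gene related to vertebrate VEGF receptors, had 16.4 and rank 24017 in replicate 1 but 57.9 and rank 677 in replicate 2. Each thus owed its place among the 2500 mainly to 1 replicate. The introns measure 49 bp in spp-1 and 95 bp in ver-1, so both regions reach beyond the intron that holds the summit. With 2 replicates, the gaps between replicates have no estimate of error.

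Intronic regions lay mostly in long introns, as most intronic sequence does. The median length of the intron around a summit was 1106 bp (95% interval 912 to 1266), with quartiles of 459 and 3573 bp, against 70 bp for all 90803 distinct autosomal introns. When every 100th base of intron open to the rule was taken instead, which weights introns by length, the median was 954 bp (n = 258844), and around weaker candidates it was 907 bp. Introns of 5000 bp or longer held 17.9% of the regions (14.3 to 21.9%) and 11.8% of these open positions. The longest was 20993 bp and 36 regions lay in introns under 100 bp, shorter than the region itself. With the 2500 strongest candidates of replicate 1 alone the median was 882 bp (769 to 1029), under that of open positions, and with replicate 2 alone 1056 bp, so the direction of this difference turned with the replicate.

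First introns were more frequent than among open positions. Of the 409 regions, 182 lay in the first intron of their transcript, or 44.5% (39.6 to 49.5%), against 32.4% of open positions and 34.4% of weaker candidates. In the thresholded list the count was 24 of 41, or 58.5% (42.1 to 73.7%). Introns after the second held 40.6% of the regions and 50.3% of open positions, and the second intron 14.9% and 17.2%. Where several introns covered a summit, the shortest was used, so a first intron can be that of a short transcript with an internal start. For the gene's own start, the intervals held the shares of open positions. Within 500 bp of the host 5' end lay 12.2% of regions (9.21 to 15.8%) and 10.5% of open positions, and within 1000 bp 20.8% (16.95 to 25.04%) and 23.3%. The median distance from that end was 3406 bp for regions and 2573 bp for open positions.

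Internal transcript starts were often near. The rule used 5' ends of genes, and 85 regions, or 20.8% (16.95 to 25.04%), lay up to 1000 bp upstream of the 5' end of some protein-coding transcript, with a median distance of 355 bp. Open positions did so in 10.3% of cases. Examples were arf-1, for an ADP-ribosylation factor, with a start 346 bp downstream of the summit, drap-1, with 72 bp, qars-1, for glutaminyl-tRNA synthetase, with 160 bp, and hlh-30, for the worm TFEB factor, with 314 bp. Without these 85 the first-intron share was 38.3% (32.95 to 43.8%) in 324 regions, and 29.6% in the matching 232145 open positions. Neither near a transcript start downstream nor within 500 bp of the host's 5' end were 281 regions, or 68.7%, against 80.4% of open positions.

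**Figure D3:**
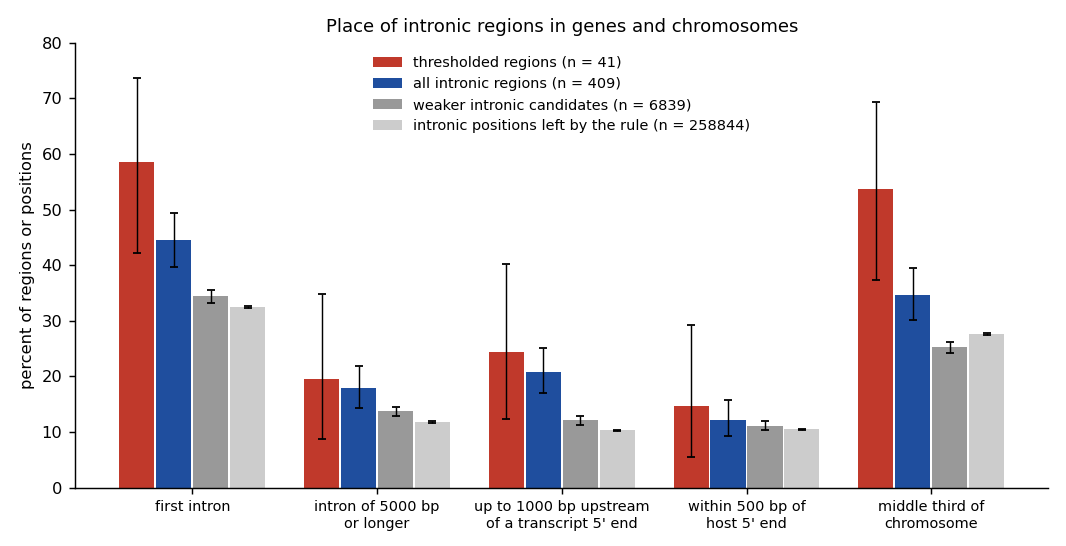
Percent (y axis) of thresholded intronic regions (red), all intronic regions (blue), weaker intronic candidates (grey) and every 100th open intronic base (light grey) with the property named on the x axis, with 95% exact binomial intervals. First introns hold 44.5% of the regions and 32.4% of open positions, and sequence up to 1000 bp upstream of a transcript 5' end 20.8% and 10.3%.

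The regions were spread over all 5 autosomes. Chromosome I held 99, II 74, III 84, IV 79 and V 73. When each autosome was cut into 3 equal parts, the middle one held 34.7% of them (30.1 to 39.6%) and 27.6% of open positions, while for thresholded regions it was 53.7% (37.4 to 69.3%). In worms the middle of an autosome is the part denser in genes, as background. The summits were nearer the splice donor than the acceptor in 43.03% of regions and 51.1% of open positions. For thresholded regions this share was 56.1% (39.75 to 71.5%), higher than both, with an interval that held both.

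Most host genes had a single region. Of 344 hosts, 299 held 1 region and 45 held 2 or more, together 110 regions, and 13 held 3 or more. Those regions are not separate samples of the genome, since 60 shared an intron with another and 27 had another summit within 1000 bp. The genes with most were zfp-1 and tent-5, with 5 each, followed by ncl-1, lin-42 and lit-1 with 4 each. Hosts were long genes, with a median of 7361 bp at the regions, against 6916 bp at open positions and 1964 bp over all autosomal protein-coding genes.

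In zfp-1 the 5 regions lay in 2 introns. Their combined signal values were 145.0, 99.8, 88.6, 75.97 and 75.1. The strongest had 48.6 in replicate 1 and 88.0 in replicate 2, while the second had 67.1 and 38.5, so neighbours in one gene differed in which replicate was higher. In tent-5, which encodes a poly(A) polymerase, the values ran from 66.7 to 86.7 in 3 introns, and none was in the thresholded list. Those of ncl-1, which limits nucleolar size, ran from 71.0 to 85.8. The regions of lin-42, the worm homolog of Period with a role in developmental timing, ran from 68.5 to 80.3, and 2 of its 4 regions matched the same candidate of replicate 2. Those of lit-1, a Nemo-like kinase gene, ran from 71.1 to 76.3. Of these 5 genes, zfp-1 alone held a thresholded region.

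Among 14 gene lists, protein kinases were the one with the highest share of hosts. They were 8 of the 69 kinase genes of the list with an open intronic position, or 11.6%, beside 344 of 14521 genes, or 2.37%, over all. By sequence rather than by gene the gap was smaller, since kinase introns held 2.45% of the regions, 10 of 409, and 1.51% of open positions. The hosts were daf-2, the insulin receptor gene (signal value 68.1), dlk-1, a MAP kinase kinase kinase gene of axon regeneration (92.9), and mek-2 (81.1) and mpk-1 (65.9), which act in succession in the Ras pathway. The others were kin-1, the catalytic subunit gene of protein kinase A, with 3 regions (79.0, 71.5 and 65.9), nekl-1 (82.1), tpa-1, a protein kinase C gene (76.01), and ver-1 (79.3). None of these was in the thresholded list. The list is not complete, since lit-1, mbk-2 and mnk-1, also kinase genes, were hosts outside it. Hypodermal genes were next with 10.3%, so the order of the lists rests on few hosts and was not tested.

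Tissue lists had few hosts. The counts were 2 of 30 body wall muscle genes (lev-11 and unc-60), 2 of 33 neuronal (slo-1 and unc-104), 2 of 28 intestinal (cpl-1 and end-1), 3 of 29 hypodermal (hmr-1, mup-4 and pnp-1), 2 of 44 germline (csr-1 and gld-1) and 0 of 23 pharyngeal. Cell adhesion and axon guidance genes gave 4 of 39, with hmr-1, the classical cadherin gene, among them. Families named by symbol gave 7 of 380 transcription factor genes, 3 of 180 ion channel genes, 1 of 99 collagen genes and 1 of 311 F-box and MATH-BTB genes. Chemoreceptor genes gave 7 of 1218, or 0.575%, and held 1.71% of the regions against 3.54% of open positions. Cytosolic ribosomal protein genes gave 0 of 26. At these counts, no tissue list can be set apart from the share over all genes.

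The sequence at the summits was richer in G and C than its surroundings. The median over the windows was 42.6% (41.6 to 43.6%), against 37.6% in windows 300 bp to each side (n = 818), 37.6% for weaker candidates and 32.7% for open positions. Thresholded regions had 46.5% (42.6 to 53.5%). The other classes of the strongest autosomal regions had higher medians than the intronic one. They were 45.54% for exonic, 44.55% for distal intergenic, 45.54% for promoter and 50.5% for regions near tRNA, snoRNA or snRNA genes. The distal intergenic interval, 42.57 to 45.54%, overlapped the intronic one. Richness in G and C was thus not particular to introns. Repeat-masked bases made up 31.0% of the windows on average, close to the 32.4% of the flanks and under the 51.1% of open positions. Nearly all windows were unique, with every 36-base stretch single-copy in 383 regions, or 93.6%. Under 50% of stretches were single-copy in 2 regions, those of ppfr-1 and klp-6, both in the thresholded list. Base composition enters both the recovery of DNA and the share of any word, so word shares are given beside the flanks. The flanks were themselves poorer in G and C, so they do not match the windows in composition.

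Purine repeats stood first among 2080 words of 6 bases, counted with both strands merged, by the gap between regions and flanks. GAGAGA was in 61 windows, or 14.9% (11.6 to 18.7%), against 7.95% of flanks, 6.13% of weaker candidates and 4.21% of open positions. Among the other classes of the 2500 strongest, it was in 18.3% of intergenic, 15.9% of promoter, 10.2% of small-RNA and 8.35% of exonic regions. Counting overlapping copies by their midpoints, it did not peak at the summit, with 146 in the nearest 50 bp, 173 from 50 to 100 bp and 63 from 250 to 300 bp. GGGCGG was in 7.34% of windows and 2.57% of flanks, and GCGCGC in 3.91% and 0.367%. Other classes held them too. GGGCGG was in 7.31% of intergenic, 6.42% of promoter, 8.03% of small-RNA and 2.63% of exonic regions. GCGCGC was in 3.65%, 7.66%, 5.47% and 0.309% of the same classes. AAAAAT was in 37.4%, against 40.8% of flanks and 61.8% of open positions. Of words of factors known in worms, CACGTG, the E-box, was in 2.69% of windows and 1.96% of flanks. TGATAA, known from GATA-family factors, was in 5.38% (3.401 to 8.03%), under the 8.44% of flanks and 8.49% of open positions.

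The 9-base word GAGACGCAG joins several of the next 6-base words, such as AGACGC, and was put together after those counts were seen. It was in 19 regions, or 4.65% (2.82 to 7.16%), against 0.367% of flanks, 0.834% of weaker candidates and 0.496% of open positions. Since it was chosen for its excess in these windows, this share is a description. Classes that did not enter that choice held it too, with 6.98% of distal intergenic regions (4.37 to 10.5%) and 5.18% of promoter regions (3.38 to 7.55%). Exonic regions held it in 0.773% (0.251 to 1.79%) and regions near small RNA genes in 0.730% (0.0885 to 2.61%). The word is therefore not particular to introns.

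**Figure D4:**
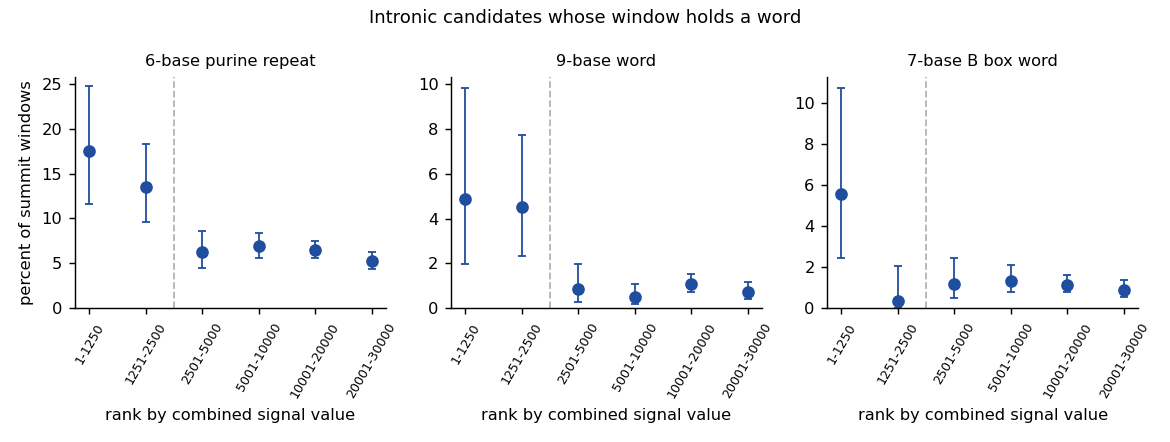
Percent of summit windows of autosomal intronic candidates (y axis, scale differs by panel) that hold each word, by rank in the combined signal value (x axis), with 95% exact binomial intervals; the dashed line marks rank 2500. The 9-base word falls from 4.51% just inside the dashed line to 0.850% at 2501 to 5000, and the B box word from 5.59% in the first class to 0.376% in the next. The 9-base word was chosen from windows inside the line, so its step there is partly set by that choice.

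By rank, the 9-base word was about as frequent in the stronger and weaker parts of the 409. It was in 4.90% of those in the stronger part of the 2500 (7 of 143) and 4.51% of those in the weaker (12 of 266), the parts having equal numbers of candidates. Past the limit it was in 0.850% of intronic candidates at ranks 2501 to 5000 and between 0.520% and 1.07% in lower classes. The word was chosen for its excess in the windows of the 409, so this step at the limit is partly set by that choice. The share moved with the replicate. Among intronic regions of the 2500 strongest it was 3.73% for replicate 2 alone and 1.81% for replicate 1 alone. Of the 15 regions with the word and a candidate in both replicates, 12 ranked better in replicate 2, or 80%, against 55.6% of all intronic regions with both.

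Within the windows, which reach 50 bp to each side, the 21 copies of the word had a median distance of 13 bp from the summit and a maximum of 38 bp. Around all 409 summits, 22 copies had their midpoint within 50 bp, 1 of them not wholly inside a window, and 13 lay from 50 to 100 bp, 5 from 100 to 150 bp, 4 from 150 to 200 bp and 0 from 200 to 300 bp. Farther out, 4 lay from 300 to 350 bp, 3 from 350 to 400 bp and 2 in each of the next 50 bp classes. The word was chosen for being in the windows rather than in flanks 300 bp away, so its nearness to the summit is partly set by that choice. GAGAGA was in 11 of the same windows, and either word in 69. The word was on the strand opposite to the host gene in 16 of 19 regions, or 84.2% (60.4 to 96.6%). Open positions with the word had it on that strand alone in 55.2% of 1189 windows, and weaker candidates in 45.3% of 53. A strand preference was not tested, and the 19 regions are among those from which the word was chosen. For GAGAGA the share was 60.7% in regions and 55.5% in open positions, inside its interval of 46.8 to 73.5%.

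**Figure D5:**
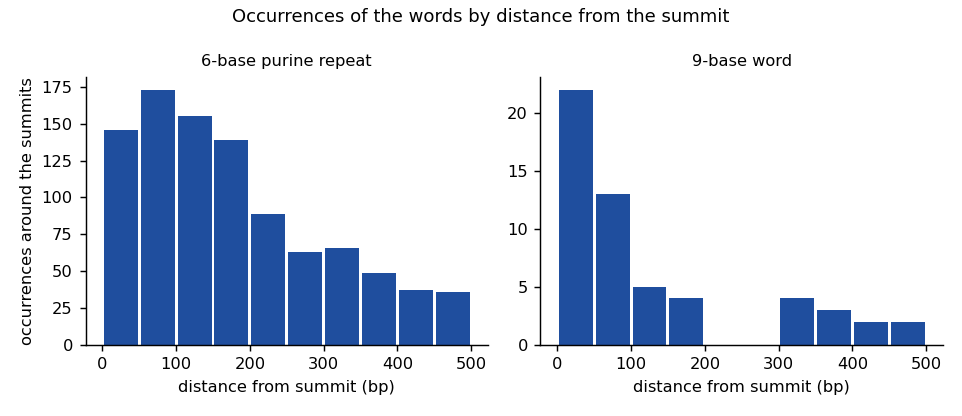
Number of copies on either strand (y axis) of the 6-base purine repeat (left) and of the 9-base word (right) by distance from the summit in classes of 50 bp (x axis), around 409 summits. The repeat has 146 copies in the nearest class and 173 in the next, and the 9-base word 22 and 13, with 0 from 200 to 300 bp and 4 from 300 to 350 bp.

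The strongest region with the word was that of Y111B2A.12, and the next that of epg-9, which had 2 copies, 5 and 24 bp from its summit. The epg-9 region had a signal value of 30.04 and rank 4289 in replicate 1 but 98.7 and rank 139 in replicate 2, and lay in the thresholded list. The region of nurf-1, for a subunit of the NURF remodelling complex, had no candidate in replicate 1 and 77.5 in replicate 2, with the word 2 bp from its summit and a transcript start 56 bp downstream. The third in the thresholded list was that of hrpk-1, an hnRNP K homolog gene, with 33.6 in replicate 1 and 67.0 in replicate 2. Other hosts included larp-1 (79.6 in the combined list), pde-4, a cAMP phosphodiesterase gene (79.4), lin-42 (77.7), zfp-1 (75.97), let-526 (74.0) and hmr-1 (73.7). The weakest was mpk-1 at 65.9, and the 19 regions lay in 19 different genes. Of them, 8 lay in first introns and 6 upstream of a transcript start.

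B box words were more frequent in thresholded regions than over all 409. GGTTCGA and TGGCNNAG were added after the 6-base words had been seen, so their shares are descriptions. GTTCGA was in 17 regions, 4.16% and near the 4.03% of the flanks, but in 6 of the 41 thresholded ones, or 14.6% (5.57 to 29.2%). CGAACC, the other B box word set before counting, was in 2.45% of regions, 2.08% of flanks and 12.2% of thresholded regions. It reads GGTTCG on the other strand, so any window with GGTTCGA holds CGAACC and GTTCGA as well. The counts of these words thus overlap and are not separate support. The longer GGTTCGA was in 9 regions, or 2.20% (1.01 to 4.14%), against 0.978% of flanks, 1.11% of weaker candidates and 0.650% of open positions. That interval held the share of weaker candidates, the 1.99% of distal intergenic and the 1.66% of promoter regions. Regions near small RNA genes reached 21.9%. Of the 9, 5 were thresholded, or 12.2% of 41 (4.08 to 26.2%), a filter not applied to the other sets. Those 5 were in Y57G11C.22, Y69A2AR.31 with 2, trd-1 and sms-3, and are also the 5 thresholded regions with CGAACC. The A box core TGGCNNAG was in 22 regions, or 5.38% (3.401 to 8.03%), against 2.32% of flanks, but 4.56% of weaker candidates, 4.79% of exonic and 5.80% of promoter regions lay inside that interval. Both GTTCGA and TGGCNNAG were in the regions of sms-3, a sphingomyelin synthase gene, and Y105C5A.15, and both regions were thresholded.

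The RefSeq annotation lists tRNA pseudogenes within 200 bp of 3 of the summits. They were K10B2.t1 in an intron of C32D5.12, Y69A2AR.t1 in the eighth intron of Y69A2AR.31 and C52E12.t1 in the fourth intron of unc-104, a gene for a kinesin of synaptic vesicle transport. The values were 63.1 in replicate 1 and 58.8 in replicate 2 for C32D5.12, 69.3 and 59.2 for Y69A2AR.31, and 47.4 and 42.1 for unc-104. The sms-3 region had 31.9 and 73.8, and that of Y57G11C.22 had 60.4 and 79.0. Each was thus found in both replicates, with the sms-3 region over 2-fold apart. Values were higher in replicate 2 in general, with medians over matched intronic regions of 34.85 in replicate 1 and 43.6 in replicate 2. The rule left out tRNA genes but not pseudogenes, and transcription of these copies was not measured.

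Other non-coding genes lay near a larger share of the thresholded regions than of all 409. Within 200 bp of such a gene or pseudogene were 49 summits, 39 of them near an ncRNA gene, 6 near a piRNA gene, 4 near a miRNA gene and 4 near a pseudogene. They were 12 of the 41 thresholded regions. No share near such genes is given for open positions or the other classes, so these counts have no background. All 49 had a candidate in both replicates, and 22, or 44.9% (30.7 to 59.8%), were among the 2500 strongest of both. This share was 26.7% for all 409 and 38.4% over all 2500, which lies inside that interval. Besides the regions of ints-8 and ppfr-1, they included those of klp-6, with srpr-2.2, tba-7, with 3 ncRNA genes, and B0361.11, with mir-2214. Leaving out regions near such genes but keeping those near tRNA pseudogenes left 363, with 8.54% thresholded.

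The tagged gene itself was not among the hosts. Y5F2A.4 lies at IV:11076085-11078582, and the nearest intronic region was 54569 bp away, in mogs-1, while the nearest nuclear candidate of the combined list was 9875 bp away. The transgene's selection marker unc-119 had its nearest intronic region 146160 bp away. A weak candidate, with a signal value of 41.2 at rank 12592, overlapped unc-119.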

How the data were processed

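Regions came from 4 lists in narrowPeak form that the authors deposited on ce11: candidates from each replicate and from their reads combined, and a thresholded list made with the irreproducible discovery rate, per the labels and the notes with the files. The deposited signal value is a unitless score. The deposited −log10 q was not used to rank. Peak caller and aligner: not given in the sources used here. Mappability, copy number and the control enter such scores.

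Summits were placed with Ensembl release 115 genes (same chromosome lengths) and RefSeq names. Shares have 95% Clopper-Pearson intervals and medians order-statistic intervals, covering counting error only. No test was run, since there is 1 group of 2 replicates. The steps were tested on made gene models with known answers (Python 3.11.15, numpy 2.4.6, pandas 2.3.3, scipy 1.17.1). Hosts were named for the 25 strongest regions, thresholded regions, the genes with most regions, the widest rank gaps and the rank limit. Hosts given as examples of a word, list or start were chosen after their values were seen. Members and lists were chosen with earlier results of these data known. Alternatives changed the rank limit, list, distances, gene ends, replicate and window.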

Additional observations from a re-analysis of the deposited data

How the results depend on the processing

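Of 91 alternative values, 65 stayed within the interval of the reported value (within 1.5 times for a count) and 26 moved. The stronger part of the 2500, equal in number to the rest, gave 143 regions, 28.7% thresholded, 99.3% in both replicates, 53.8% in first introns and a median GC of 44.6%. The 5000 strongest gave 997 regions, 4.11% thresholded, 83.0% in both replicates and 9.83% with GAGAGA. The thresholded list alone gave 41 regions, 100% in both replicates, a median intron of 1367 bp, 58.5% in first introns, 19.5% with GAGAGA and a median GC of 46.5%. With 5' ends of every transcript, 38.3% lay in first introns. Matching replicates within 100 bp gave 76.5% in both and within 500 bp 95.3%. GAGAGA was in 8.56% of windows of 25 bases to each side and 24.9% of windows of 100 bases to each side, and GAGACGCAG in 3.18% and 7.58%, against 4.65% in the main windows.

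Each replicate alone gave 429 to 441 regions, 9.07 to 9.32% thresholded, 42.9 to 45.4% in first introns, a median intron of 882 to 1056 bp, 12.5 to 14.2% with GAGAGA and a median GC of 40.6 to 41.6%. The lowest median intron, from replicate 1 alone, lay under the 954 bp of open positions, which the reported 1106 bp exceeded, and GAGACGCAG was in 1.81 to 3.73%. Replicate support has no value there. The causes of these moves were not tested beyond the fewer or more regions that each setting kept. Shares in 41 regions rest on few counts. No paired analysis was possible because there is only 1 group.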
